A study of Mus musculus with 2 samples.

Results

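Droplet barcodes in which more than 10% of the unique molecular identifiers (UMIs, random tags counted once for every RNA molecule that was caught) came from mitochondrially encoded genes are described here for mouse CD8+ T cells. There were 2873 such high-mitochondrial barcodes among 30293 in all, and they were chosen by that measured share alone. The series asks how electrical stimulation through the matrix relates to the fate of CD8+ T cells, the T cells that destroy infected or tumour cells. It holds 1 library labelled NC and 1 labelled HC, both of lymph node CD8+ T cells made with the 10x 3' v3.1 kit. The labels name no strain, age, time or number of animals, do not spell out NC or HC, and do not say which library was stimulated. With 1 library per group no test between groups exists, barcodes are not replicates, and each 95% interval below covers counting error only.

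A dying or torn cell can lose the soluble RNA of its cytoplasm while RNA held inside organelles stays behind, which is why a high mitochondrial share is widely used to screen out damaged cells. RNA in a cell sits in several places. Ribosomal protein, cytoskeletal and glycolytic mRNAs are translated in the cytosol, mRNAs of membrane and secreted proteins are translated on the endoplasmic reticulum, and long non-coding RNAs such as Malat1, Neat1 and Xist remain in the nucleus. Barcodes of this kind thus offer a view of how the rest of the transcriptome is made up when mitochondrial RNA is abundant. Sequencing from the poly(A) end can also begin at runs of A inside an RNA, which bears on unspliced and nuclear RNA.

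Nuclear RNAs and RNAs from the ribosomal RNA repeat were among the loci with the larger differences in share, and the longest run of A in 4 of them is shown here because it is where oligo(dT) could prime within the transcript. Bases are 5' to 3' in the sense of the transcript, from the GRCm38 genome, and capitals mark the longest run of A in the annotated transcript.
Malat1, chr19:5795979-5796008, minus strand: cctagctttAAAAAAAAAAAAgcaaaagac
Xist, chrX:103482677-103482705, minus strand: ttttgtAAAAAAAAAAAAAAAAAcaaaaa
Neat1, chr19:5835923-5835951, minus strand: gcctggactatAAAAAAAccttcatgagg
Gm42418, chr17:39847155-39847184, plus strand: gcgtttactttgAAAAAAttagagtgttca
The runs were 12 bases in Malat1, 17 in Xist, 7 in Neat1 and 6 in Gm42418, so that the first pair held a run of at least 10 and the second pair did not. Kcnq1ot1, another nuclear RNA described below, held 10 such runs, the longest of 41 bases. The 4 printed RNAs were more abundant among the non-mitochondrial UMIs of high-mitochondrial barcodes, as the values below show.

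High-mitochondrial barcodes made up 1096 of 14798 NC barcodes (7.41%, Clopper-Pearson interval 6.99 to 7.84%) and 1777 of 15495 HC barcodes (11.5%, 10.97 to 11.98%). They were compared with reference barcodes of the same library, which had at least 500 genes, at least 1000 UMIs and at most 10% mitochondrial UMIs: 13641 in NC and 13617 in HC. A further 61 NC and 101 HC barcodes were too shallow for the reference without being high in mitochondrial UMIs and belonged to neither group. Barcode sequences found in both libraries numbered 64, of which 5 were high-mitochondrial in NC, 10 in HC and 0 in both. No doublet caller was run.

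The defining share was 40.6% at the median in NC and 43.2% in HC, reaching 88.6% and 82.4%, against medians of 3.93% and 4.36% in the reference. Total depth was far lower, with a median of 958 UMIs and 407 genes per NC barcode and 839 UMIs and 364 genes per HC barcode, while reference barcodes had 6898 UMIs and 2032 genes in NC and 7425 UMIs and 2176 genes in HC. The difference lay almost wholly in the other RNA. Non-mitochondrial UMIs had medians of 532 against 6622 in NC and 453 against 7102 in HC. Mitochondrial UMIs themselves had medians of 375 against 287 in NC and 353 against 328 in HC, and 69.5% of NC and 57.0% of HC high-mitochondrial barcodes lay above the reference median. Since the rule uses the ratio of these quantities, they describe the members and support nothing further. In a droplet, fewer RNA molecules per cell and a smaller or incomplete cell cannot be told apart from these counts.

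**Figure D1:**
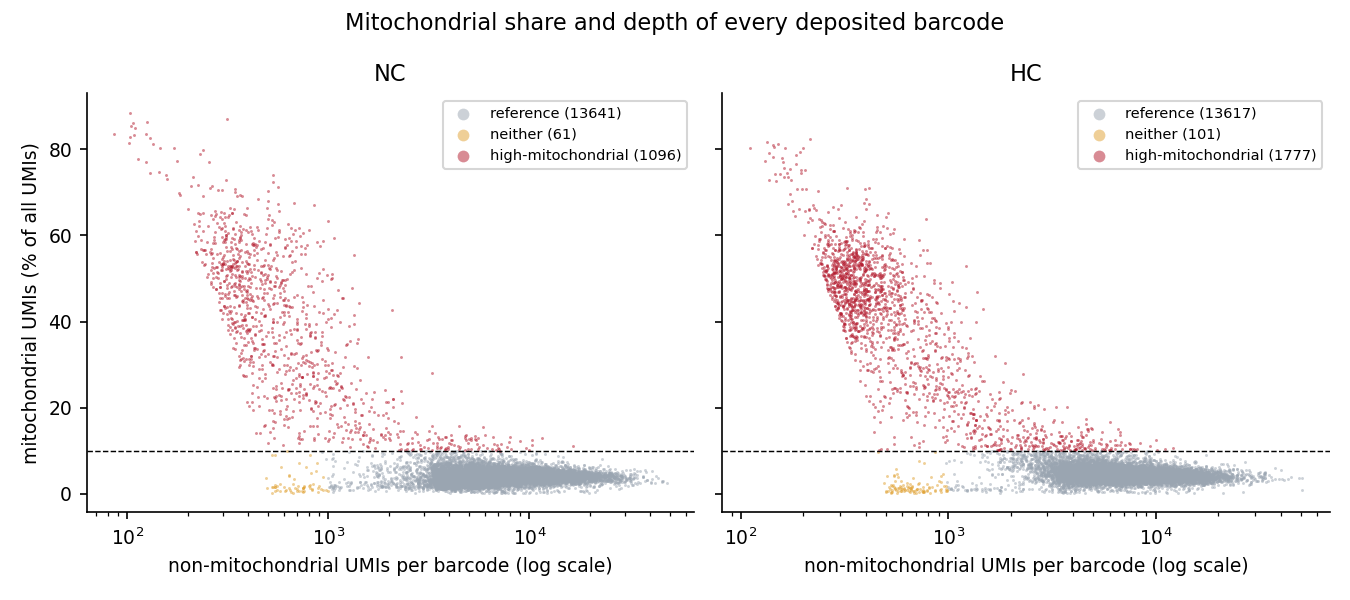
Each point is 1 deposited barcode, with its non-mitochondrial UMIs on a log scale along x and its mitochondrial share in percent along y, in NC (left) and HC (right), coloured by group, with the dashed line at 10%. The 1096 NC and 1777 HC high-mitochondrial barcodes spread from the lower edge of the reference cloud up and leftwards to shares of up to 88.6% in NC and 82.4% in HC.

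The members were not one population in depth. Barcodes at more than 10 to 15% mitochondrial were 13.6% of the NC members and 13.4% of the HC members, yet held 47.8% and 47.5% of their non-mitochondrial UMIs, because their median depth was 3224 and 3281 UMIs. Those over 50% were 31.8% and 29.3% of the members and held 12.6% and 10.8% of these UMIs. Sums over all members therefore lean towards the barcodes closest to the threshold. Just inside it, at more than 10 to 11%, 40 NC and 77 HC barcodes had median depths of 4339 and 4232 UMIs. Just outside, at more than 9 to 10%, 70 NC and 143 HC barcodes had 4534 and 3828. Malat1 stood at 6044 and 7110 UMIs per 1000000 non-mitochondrial UMIs (CPM, the scale used throughout) just inside, and at 6036 and 6043 just outside in NC and HC. Only 374 NC members (34.1%) and 527 HC members (29.7%) would have passed the depth limits of the reference.

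The members carried the label's cell type. The 7 CD8+ T cell markers Cd8a, Cd8b1, Cd3e, Cd3d, Cd3g, Trac and Trbc2 summed to 7638 CPM in NC members against 7973 in the reference, and to 6466 against 6982 in HC, and all 7 were detected. Cd8b1, a chain of the CD8 co-receptor, stood at 611 against 592 CPM in NC and 580 against 553 in HC. Its log2 ratios of high-mitochondrial over reference were 0.05 (-0.07 to 0.16) and 0.07 (-0.02 to 0.16), so on this scale it differed by less than counting error. After each barcode was thinned to 500 non-mitochondrial UMIs, which left out 512 NC and 994 HC members as too shallow, Cd8a or Cd8b1 was seen in 38.2% of 584 NC members and 38.8% of reference barcodes, and in 35.3% of 783 HC members and 34.2% of reference barcodes. Without thinning the shares were 49.8% against 98.4% in NC and 42.0% against 98.3% in HC. Single markers went both ways after thinning to 500. Cd8a was seen in 21.4% against 17.2% in NC and 14.8% against 12.5% in HC. Cd3e was seen in 18.5% against 16.4% and 17.4% against 15.2%. Trac was seen in 11.8% against 17.9% and 12.9% against 14.7%, and Cd8b1 in 22.6% against 26.7% and 23.75% against 24.9%. No cell type lacking Cd8 was at hand to set the level of free RNA in the droplets, so its part in these shares was not tested.

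Markers of other cells were scarce. The 3 CD4 T cell markers summed to 0 UMIs in NC members and 3 in HC members, the neutrophil and mast cell lists to 0 in both, and the platelet, erythroid and fibroblast lists to at most 1 UMI in either. B cell markers summed to 32.0 CPM against 48.5 in the NC reference and 53.6 against 29.4 in HC, and dendritic cell markers to 30.2 against 28.7 and 53.03 against 46.8. Gamma-delta T cell markers stood at 118 against 133 CPM and 129 against 113, natural killer markers at 10.98 against 6.93 and 5.89 against 7.41, macrophage markers at 9.15 against 8.62 and 10.6 against 6.18, plasma cell markers at 0.915 against 2.46 and 2.36 against 0.804, and epithelial markers at 10.98 against 5.70 and 6.48 against 5.81. In HC the B cell interval of the members (43.2 to 65.8 CPM) lay wholly above that of the reference (28.4 to 30.4), while in NC the members were the lower. The endothelial list stood higher in both libraries, at 109 against 45.5 CPM in NC and 121 against 42.8 in HC, all of it in the members from Pecam1, an adhesion molecule that leukocytes also carry, while Cdh5 and Kdr were at 0 in the members. The part of these cells in the differences below was not tested.

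Within the mitochondrial RNA, composition moved little. mt-Co1, a subunit of cytochrome oxidase, made up 12.98% of mitochondrial UMIs in NC members against 15.5% in the reference, and 12.8% against 14.4% in HC. mt-Nd1, a subunit of complex I, made up 5.01% against 4.86% and 4.94% against 5.23%. Its direction thus differed between the libraries. Log2 differences in share were lowest for mt-Atp8 (-0.36 in NC and -0.41 in HC) and mt-Nd5 (-0.32 and -0.25) and stood at 0.13 and 0.11 for mt-Nd2, all 3 with the same sign in both libraries. The highest in HC was mt-Nd6, at 0.23 (0.09 to 0.36), which stood at 0.01 (-0.19 to 0.20) in NC.

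Nuclear-encoded genes were counted as measured with at least 50 CPM in members or reference, and as higher or lower from 1.5-fold, a size and not a test. In NC, 1198 of 3377 measured genes (35.5%) were higher in the members and 191 (5.66%) were lower. In HC, 1126 of 3285 (34.3%) were higher and 244 (7.43%) were lower. The median gene stood at 0.20 and 0.16 on the log2 scale. Part of this imbalance comes from the 50 CPM rule, since 850 NC and 778 HC genes were measured through the members alone and 693 and 625 of those were higher. Among genes that reached 50 CPM in the reference itself, 505 of 2527 in NC and 501 of 2507 in HC were higher (19.98% in both), 191 (7.56%) and 244 (9.73%) were lower, and the medians were -0.08 and -0.09.

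A change of scaling moves the split further, for a reason that was not tested. With TMM factors (a trimmed mean over genes) all log2 ratios drop by 0.55 in NC and 0.53 in HC, and the split becomes 559 higher and 1345 lower in NC and 494 higher and 1317 lower in HC. With median-of-ratios factors it is 578 and 1311 in NC and 489 and 1324 in HC. Shares of all non-mitochondrial UMIs are used below, with the TMM value beside gene lists and length classes whose direction turns. Since TMM takes 1 constant off every ratio of a library, it moves signs and counts but no difference between genes. No scaling makes the members richer in absolute terms. They held a mean of 997 non-mitochondrial UMIs per barcode in NC and 955 in HC, against 8148 and 8038 in the reference, so an evenly depleted gene would have 8.17 and 8.42 times fewer UMIs per barcode. Of the measured genes, 4 in NC (AY036118, Gm26917, Gm44175 and Tsix) and 2 in HC (Gm44175 and Tsix), named after their values were seen, had no fewer UMIs per barcode in the members than in the reference.

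The order of genes was much the same in both libraries. Over 3111 genes measured in both, the log2 ratios of NC and HC had a Pearson r of 0.96 and a Spearman rho of 0.95, given as a description because genes are not independent. Of these, 974 were higher in both libraries, which is 91.6% of the NC calls and 92.9% of the HC calls, 95 were lower in both (52.2% and 40.3%), and 0 had opposite calls. The 2 libraries share a protocol and a kit, and each ratio rests on its own reference.

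**Figure D2:**
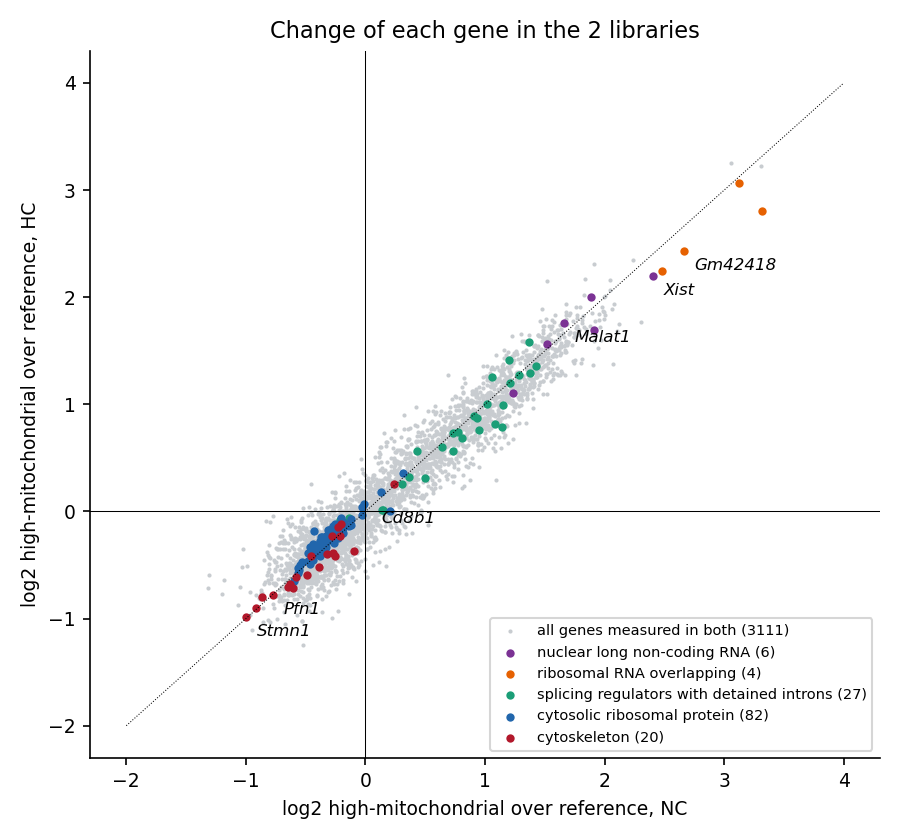
Each point is 1 of 3111 genes measured in both libraries, at its log2 ratio of high-mitochondrial over reference barcodes in NC (x) and HC (y), with 5 gene groups coloured and the dotted line marking equality. Nuclear and ribosomal-RNA-overlapping genes lie at the upper right, splicing regulators mostly above 0 on both axes, and ribosomal protein and cytoskeletal genes mostly below 0 on this scale.

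Nuclear long non-coding RNAs formed the first group at the high end. All 6 measured of 14 were higher in both libraries, beside 35.5% of all genes in NC and 34.3% in HC, with medians of 1.77 and 1.73. The 3 with at least 100 CPM in the reference were all higher too, beside 13.7% and 13.5% of all such genes. The group took 2.04% of non-mitochondrial UMIs against 0.613% in NC and 1.77% against 0.506% in HC. Malat1 (chr19:5795690-5802672, minus strand), a nuclear speckle RNA, stood at 16420 CPM in NC members against 5206 in the reference and at 14074 against 4153 in HC, log2 ratios of 1.66 (1.64 to 1.68) and 1.76 (1.74 to 1.78). Xist (chrX:103460366-103483254, minus strand), which coats the inactive X chromosome, stood at 2418 against 456 CPM and 2128 against 463. Its log2 ratios were 2.41 (2.35 to 2.46) and 2.20 (2.15 to 2.25), the highest of the group. Neat1, the scaffold of paraspeckles, had 293 against 77.7 CPM in NC and 279 against 86.0 in HC (log2 1.91 and 1.70), and Kcnq1ot1, which silences an imprinted domain, had 898 against 244 and 851 against 213 (1.88 and 2.0). Read per barcode, Malat1 still fell short of the reference, with 16.4 UMIs per NC member against 42.4 and 13.4 per HC member against 33.4, which is 2.59 and 2.48 times fewer where the average gene had over 8 times fewer. Tsix (chrX:103431517-103484957, plus strand), antisense to Xist and spanning it, had log2 ratios of 3.31 and 3.23. Whether counting used strand is not given in the sources used here, and any mixing of UMIs between Xist and Tsix was not tested.

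Genes that overlap the ribosomal RNA repeat stood higher still. All 4 of the list were higher in both libraries, beside 35.5% of all genes in NC and 34.3% in HC, with medians of 2.89 and 2.61. The 3 with at least 100 CPM in the reference were all higher too. Together the 4 genes took 1.31% of non-mitochondrial UMIs in NC members against 0.196% in the reference and 1.27% against 0.226% in HC. Gm42418 (chr17:39846958-39848788, plus strand) carried most of it, at 10402 against 1646 CPM in NC and 10497 against 1951 in HC, log2 ratios of 2.66 (2.63 to 2.69) and 2.43 (2.41 to 2.45). AY036118 (chr17:39847113-39848035, minus strand) lies wholly within it, and any mixing of their UMIs was not tested. AY036118 had 900 against 104 CPM and 1023 against 122. Gm26917, whose locus lies just before Gm42418 on the same strand, had 1468 against 148 CPM in NC and 837 against 120 in HC, and Lars2, a mitochondrial leucyl-tRNA synthetase gene placed on the list because it often tracks these loci, had 325 against 58.2 and 330 against 69.7. The barcodes in neither group, shallow but low in mitochondrial UMIs, had even more of this group: 6.097% in NC and 4.19% in HC.

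Splicing regulators known for introns that are retained in the nucleus followed at a smaller size. Of 27 measured genes, 19 in NC and 18 in HC (70.4% and 66.7%, beside 35.5% and 34.3% over all genes) were higher and none was lower, with medians of 0.91 and 0.76, and the medians stayed above 0 with TMM factors at 0.36 and 0.22. Rbm5, a splicing factor, had 322 against 120 CPM in NC and 289 against 113 in HC (log2 1.43 and 1.36). Ogt, the O-GlcNAc transferase whose level is set partly by a detained intron, had 565 against 220 CPM and 609 against 204 (1.36 and 1.58), and Clk1, a kinase of splicing factors, had 254 against 111 and 269 against 101 (1.2 and 1.41).

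How often surface receptor genes were called higher, beside genes at large, depended on the CPM floor, and none was lower. Of 43 measured in NC and 42 in HC, 16 (37.2%) and 12 (28.6%) were higher, beside 35.5% and 34.3% over all genes. Their medians of 0.38 and 0.35 turn to -0.17 and -0.18 with TMM factors. Among genes with at least 100 CPM in the reference, 8 of 30 (26.7%) in NC and 8 of 31 (25.8%) in HC were higher. Of all such genes 13.7% and 13.5% were higher. Ptprc, the leukocyte phosphatase CD45, had 1628 against 667 CPM in NC and 1396 against 568 in HC, log2 ratios of 1.29 (1.22 to 1.35) and 1.3 (1.24 to 1.36). After thinning it was seen in 57.4% of NC members against 28.2% of reference barcodes, and in 50.8% against 25.9% in HC. Cd69, an activation marker, had 164 against 59.6 and 187 against 54.8 CPM, and Itgb7, the beta chain of gut-homing integrins, 482 against 219 and 704 against 276. Of 11 genes of MHC class I presentation, 5 in each library (45.5%) were higher and none was lower (medians 0.58 and 0.56, or 0.03 and 0.03 with TMM factors). Of the 7 with at least 100 CPM in the reference, 2 in each library (28.6%) were higher and none was lower. H2-Q4 was at 143 against 69.9 CPM in NC and 130 against 66.6 in HC, whereas B2m, the short light chain, was at 1176 against 1282 and 1080 against 1083. The endoplasmic reticulum list, whose own products fold and translocate such proteins, had medians of -0.03 and -0.09, with 4 of 28 higher in NC, 1 of 26 in HC and 1 lower in each. Among these, Hspa5 had 439 against 247 CPM in NC, where 1 barcode gave 12.3% of its member UMIs, and 274 against 196 in HC.

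Genes for the translation apparatus lay below the median gene with few reaching 1.5-fold. Cytosolic ribosomal protein genes took 30.7% of non-mitochondrial UMIs in NC members against 38.5% in the reference, and 32.3% against 38.9% in HC. None of the 82 measured was higher and 1 was lower in each library, and the medians were -0.33 and -0.25. The 1 lower gene was 1.22% of the list, beside 5.66% in NC and 7.43% in HC over all genes. Rps2, a small-subunit protein, was the lowest of them in both libraries, at 5049 against 7622 CPM in NC (log2 -0.59) and 6555 against 10305 in HC (-0.65). Translation factors had medians of -0.37 and -0.36, with 0 and 2 of 20 lower.

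Nuclear genes whose proteins go to mitochondria were not raised with the mitochondrial genome's own RNA. Nuclear oxidative phosphorylation genes had medians of -0.38 in NC and -0.33 in HC, with none of 78 higher and 5 and 6 lower. Those lower were 6.41% and 7.69%, close to the 5.66% and 7.43% over all genes. Mitochondrial ribosomal protein genes had medians of -0.38 and -0.40, with none higher and 7 of 53 and 12 of 52 lower (13.2% and 23.1%). The 3 measured genes of mitochondrial DNA maintenance had medians of -0.23 and -0.08 with 1 higher, and the 7 measured of mitophagy and mitochondrial shape -0.18 and -0.29 with 1 lower in NC and 0 in HC. With TMM factors these 4 medians are all lower still. Ciao2a, a member of the cytosolic iron-sulphur assembly machinery, was the lowest of the HC members among genes at 100 CPM, at 57.2 against 136 CPM (log2 -1.25, -1.55 to -0.96), and stood at 101 against 144 in NC (-0.52, -0.80 to -0.25).

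Among cytosolic housekeeping groups the cytoskeletal genes stood lowest. They had medians of -0.42 and -0.47 with none of 20 higher and 7 and 9 lower (35% and 45%, beside 5.66% and 7.43% over all genes). Actb stood at 7048 against 8820 CPM in NC and 5971 against 7865 in HC, Pfn1, an actin-binding protein, at 1092 against 1866 and 833 against 1433, and Tuba1b, an alpha-tubulin, at 375 against 709 and 396 against 742. Stmn1, a regulator of microtubules high in dividing cells, was among the lowest, at 476 against 948 CPM in NC and 539 against 1071 in HC, log2 ratios of -1.0 (-1.12 to -0.87) and -0.99 (-1.09 to -0.90). Lcp1, the L-plastin gene with a long transcript, went the other way by less than 1.5-fold (0.23 and 0.26, which turn negative with TMM factors). Glycolysis genes had medians of -0.28 and -0.39, with 1 higher in each library (Slc2a3, a glucose transporter, at 70.5 against 32.9 and 128 against 55.4 CPM) and 1 of 11 and 2 of 13 lower. Gapdh was at 1620 against 2363 CPM in NC and 2621 against 3930 in HC. Proteasome genes had medians of -0.35 and -0.31 (1 higher in each, 3 and 5 of 35 lower) and chaperones -0.38 and -0.34 (none higher, 0 of 16 and 3 of 17 lower). The share called lower in these 3 lists ran from 0 to 9.09% in NC and from 14.3 to 17.6% in HC, on counts of at most 5 genes, beside 5.66% and 7.43% over all genes.

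Cell cycle genes split within their lists. Of 20 mitosis genes, 6 in NC and 8 in HC were lower (30% and 40%) and 1 and 0 were higher, with medians of -0.43 and -0.41. Over all genes 5.66% and 7.43% were lower and 35.5% and 34.3% higher. Ube2c, which drives the exit from mitosis, was at 218 against 383 CPM in NC and 236 against 477 in HC, and Nusap1, a spindle protein, at 86.9 against 172 and 117 against 230. In contrast Mki67, the proliferation antigen with a transcript of 10061 bases, was at 465 against 372 CPM and 681 against 546 (log2 0.32 in both), and Cenpe, a kinetochore motor of 7910 bases, at 191 against 112 and 212 against 154 (0.77 and 0.46). With TMM factors Mki67 turns to -0.23 and -0.22, and Cenpe turns negative in HC only. Long transcripts of the list did not all stand higher. Cdk1, of 4375 bases, had log2 ratios of -0.79 and -0.60, and Tpx2, of 4365 bases, had -0.68 and -0.78. DNA replication genes had medians of -0.40 and -0.13 (0 of 18 and 1 of 19 higher, 5 and 4 lower), with Mcm3, a helicase subunit, at 79.6 against 181 CPM in NC and 138 against 215 in HC. Polyadenylated histone variants had medians of -0.71 and -0.67, with 4 lower of 6 and of 7. Clustered histone genes differed between the libraries, with a median of 0.42 in NC (5 of 11 higher, 3 lower) and -0.29 in HC (0 of 15 higher, 4 lower), and the NC median turns to -0.13 with TMM factors. The NC direction also turns when genes are taken by their level in the reference: the 5 NC genes with at least 100 CPM there had a median of -0.81 (0 higher, 3 lower) and the 6 HC genes -0.18 (0 higher, 2 lower). Hist1h1b, a linker histone gene, was at 235 against 485 and 411 against 669 CPM.

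Death and stress genes were mixed. Their counts stand beside 35.5% higher and 5.66% lower over all genes in NC, and 34.3% and 7.43% in HC. Of 8 measured apoptosis genes in NC and 7 in HC, 2 were higher in each and 2 and 0 were lower (medians 0.04 and 0.27, both negative with TMM factors). Bcl2, an inhibitor of apoptosis with a transcript of 7191 bases, was among the highest of all genes, at 551 against 133 CPM in NC and 644 against 144 in HC, log2 ratios of 2.05 (1.93 to 2.16) and 2.16 (2.07 to 2.25). Bcl2l11, the pro-apoptotic Bim, was also higher at 127 against 64.3 and 97.8 against 54.6 CPM, while Bax, another pro-apoptotic member, was at 140 against 219 and 132 against 189. Members of opposite function thus stood on the same side. Immediate early genes had medians of 0.06 and 0.20, with 3 and 2 of 10 higher (30% and 20%, below the shares over all genes) and none lower. Among them Jun was at 125 against 48.0 and 126 against 49.2 CPM, so it was measured through the members alone in both libraries. Of the immediate early genes with at least 100 CPM in the reference, 1 of 7 in NC and 1 of 6 in HC were higher and none was lower. Their medians were -0.08 and 0.07. Hypoxia genes had -0.10 and 0.27 (0 of 3 and 3 of 7 higher, 0 and 1 lower), p53 targets 0.38 and 0.26 (1 of 2 and 1 of 3 higher), the integrated and mitochondrial stress response -0.02 and -0.26 (0 of 3 called), interferon-stimulated genes 0.02 and -0.09 (1 of 6 and 1 of 4 higher), and secreted and granule proteins -0.21 and -0.41 (0 of 7 and 1 of 5 lower). The positive medians among these 5 lists and the immediate early list turn negative with TMM factors. The HC hypoxia direction also turns when genes are taken by their level in the reference. The 2 HC hypoxia genes with at least 100 CPM there had a median of -0.44 (0 higher, 1 lower).

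Annotated spliced length ordered the protein-coding genes in both libraries. Transcripts of up to 1000 bases had a median log2 ratio of -0.33 in NC and -0.34 in HC, those over 1000 to 2000 bases -0.23 and -0.25, over 2000 to 3000 bases 0.16 and 0.14, over 3000 to 5000 bases 0.52 and 0.51, and over 5000 bases 1.0 and 0.93. The share of genes called higher in NC went from 2.06% in the shortest class to 74.2% in the longest, beside 35.5% over all. These shares include genes measured through the members alone. Among genes with at least 100 CPM in the reference, 0.366% of the shortest and 51.4% of the longest class were higher in NC, beside 13.7% of all such genes, and in HC 0% and 51.5%, beside 13.5%. Their medians in NC were -0.35, -0.34, -0.17, 0.06 and 0.60 from the shortest class to the longest, and in HC -0.34, -0.34, -0.17, 0.13 and 0.60, so the classes below 2000 bases did not separate there. With TMM factors the medians over all measured genes are -0.40 and -0.39 at over 2000 to 3000 bases, -0.03 and -0.03 at over 3000 to 5000, and 0.45 and 0.40 above that, so that the longest class alone stays above 0. Genes that were higher had a median spliced length of 4572 bases in NC and 4627 in HC, genes that were lower 1353 and 1332, and the others 1992 and 2010. Across 3307 NC and 3213 HC protein-coding genes, the log2 ratio and the log of length had a Pearson r of 0.61 and 0.62 and a Spearman rho of 0.62 and 0.64, a description over genes that are not independent and share their libraries. Coding and 3' untranslated length went the same way, with coding sequences over 2000 bases at a median of 0.94 and 0.88 and 3' untranslated regions over 2000 bases at 0.71 and 0.70. The 63 and 66 measured long non-coding RNAs had medians of 1.36 and 1.26, with 42 and 46 higher (66.7% and 69.7%, beside 35.5% and 34.3% over all genes).

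Length and group membership overlap, and the lists were split at 2000 bases, a check added after the data were seen. It covers all measured genes, including those measured through the members alone, most of which were higher. Such genes can raise a side in advance, and the split was not repeated on genes fixed by their level in the reference. Of 19 lists with at least 3 genes on each side, the longer genes had the higher median in 16 in NC and in 15 in HC, with a median difference of 0.30 and 0.21. Surface receptor genes of up to 2000 bases had medians of 0.14 and 0.09, against 0.84 and 0.75 for longer ones. Immediate early genes had -0.14 and -0.02 against 0.77 and 0.70, and mitosis genes -0.52 and -0.52 against -0.20 and -0.10. Splicing regulators were an exception, with 1.04 and 0.94 for the shorter genes and 0.81 and 0.74 for the longer. Cytosolic ribosomal proteins were equally low on both sides in NC, at -0.33 each.

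Membrane features ran beside length. The features were a hydrophobic N terminus or a membrane-segment-like stretch, read from the translated coding sequence of the annotated transcript. These values and those for runs of A below include genes measured through the members alone. They were not repeated on genes fixed by their level in the reference. Genes with either feature had a median of 0.04 in NC and -0.04 in HC at over 1000 to 2000 bases. Other genes of that length had -0.28 and -0.28. At over 2000 to 3000 bases the medians were 0.35 and 0.34 against 0.05 and 0.02, and over 5000 bases 1.11 and 1.01 against 0.95 and 0.91. With TMM factors the membrane classes of up to 3000 bases all lie below 0 (-0.20 in both libraries at over 2000 to 3000 bases). A run of at least 10 A in the annotated transcript was present in 28.2% of the higher and 7.33% of the lower NC genes, beside 18.5% of all measured genes. Within length classes the comparison was mixed. Genes with a run had the higher median in both libraries at up to 1000 bases (-0.22 against -0.33 in NC, -0.21 against -0.35 in HC), at over 1000 to 2000 (-0.14 against -0.23, -0.13 against -0.26) and at over 3000 to 5000 (0.63 against 0.48, 0.59 against 0.49). At over 2000 to 3000 bases they were higher in NC and lower in HC (0.22 against 0.14, 0.11 against 0.16), and over 5000 bases they were lower in both (0.90 against 1.08, 0.91 against 0.95). The annotated transcripts hold no introns, so reads primed within introns are not covered by this description.

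The order by length widened with the mitochondrial share. To hold the genes fixed, those with at least 100 CPM in the reference were followed through the members, a step added after the data were seen. For 273 NC genes of up to 1000 bases the median log2 ratio was -0.07 in barcodes over 10 to 15% mitochondrial, -0.37 over 15 to 25%, -0.74 over 25 to 50% and -0.98 over 50%. For 140 NC genes over 5000 bases it was 0.22, 0.68, 0.93 and 1.0. HC gave -0.18, -0.26, -0.76 and -0.79 for 268 short genes, and 0.27, 0.51, 0.91 and 0.92 for 134 long ones. Most of the distance was thus reached by the 25 to 50% class, which holds the largest number of members (451 in NC and 815 in HC).

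**Figure D3:**
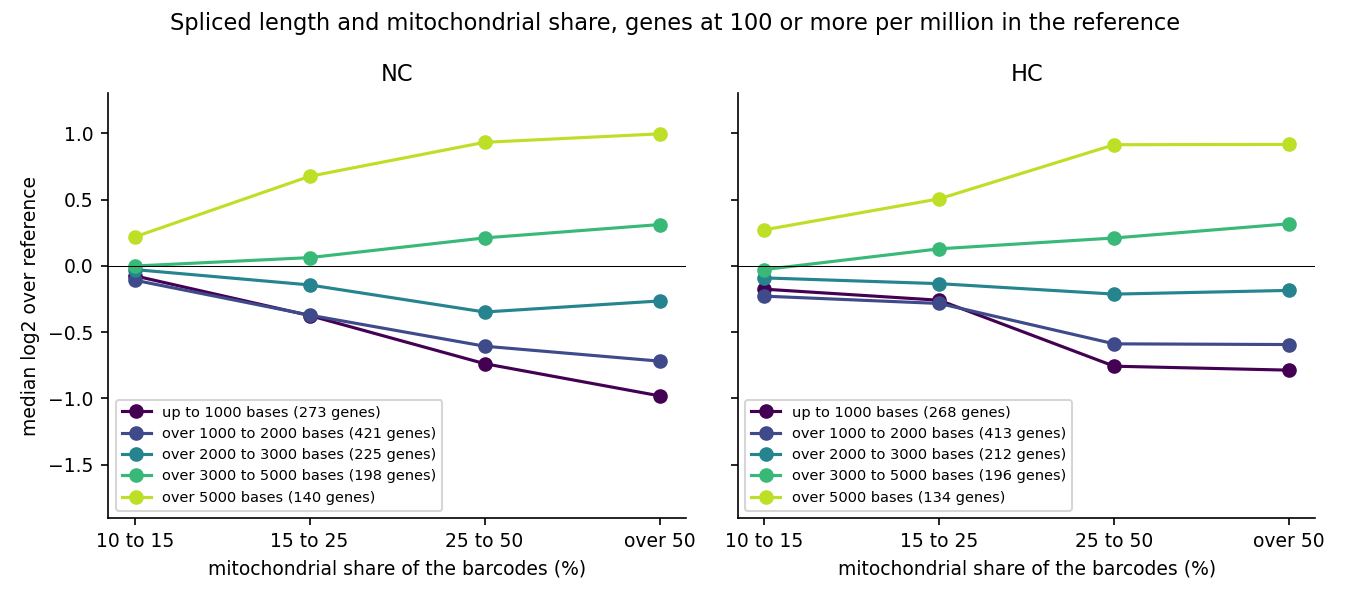
Median log2 ratio over the reference (y) of protein-coding genes at 100 CPM or more in the reference, in 5 classes of spliced length, against the mitochondrial share of the barcodes (x, 4 classes), in NC (left) and HC (right). Lines fan out from near 0 at 10 to 15% to -0.98 and 1.0 in NC, and to -0.79 and 0.92 in HC, for the shortest and the longest class at over 50%.

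Some gene groups followed the mitochondrial share and others did not. In NC the nuclear long non-coding RNAs took 0.613% of non-mitochondrial UMIs in reference barcodes at up to 5% mitochondrial and 0.611% at over 5 to 10%, then 0.993%, 2.16%, 3.36% and 3.30% in the 4 member classes. In HC the same values were 0.492%, 0.548%, 0.880%, 1.65%, 3.11% and 2.78%. Cytosolic ribosomal protein genes ran from 38.4% and 39.0% in the NC reference through 37.8%, 30.5% and 23.03% to 18.7%, and in HC from 38.6% and 39.7% through 39.2%, 33.1% and 22.8% to 22.3%. Members at 10 to 15% were therefore close to the reference in ribosomal protein RNA, and those above 25% were not. Malat1 reached 27331 CPM in NC and 24473 in HC at 25 to 50% and was lower again above 50%, at 23649 and 19969. Bcl2 was higher in each successive member class in NC, from 130 and 146 CPM in the reference to 236, 451, 919 and 1146. Among genes fixed by the reference, NC surface receptors had medians of 0.19, 0.39, 0.36 and 0.01 over the 4 classes, mitosis genes -0.55, -0.34, -0.66 and -0.43, and chaperones -0.27, -0.39, -0.68 and -0.40, with no steady order. Cd8b1 showed no such gradient either, with 593 and 585 CPM in the NC reference and 584, 566, 722 and 551 in the members, and 544, 581, 591, 531, 609 and 537 in HC.

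**Figure D4:**
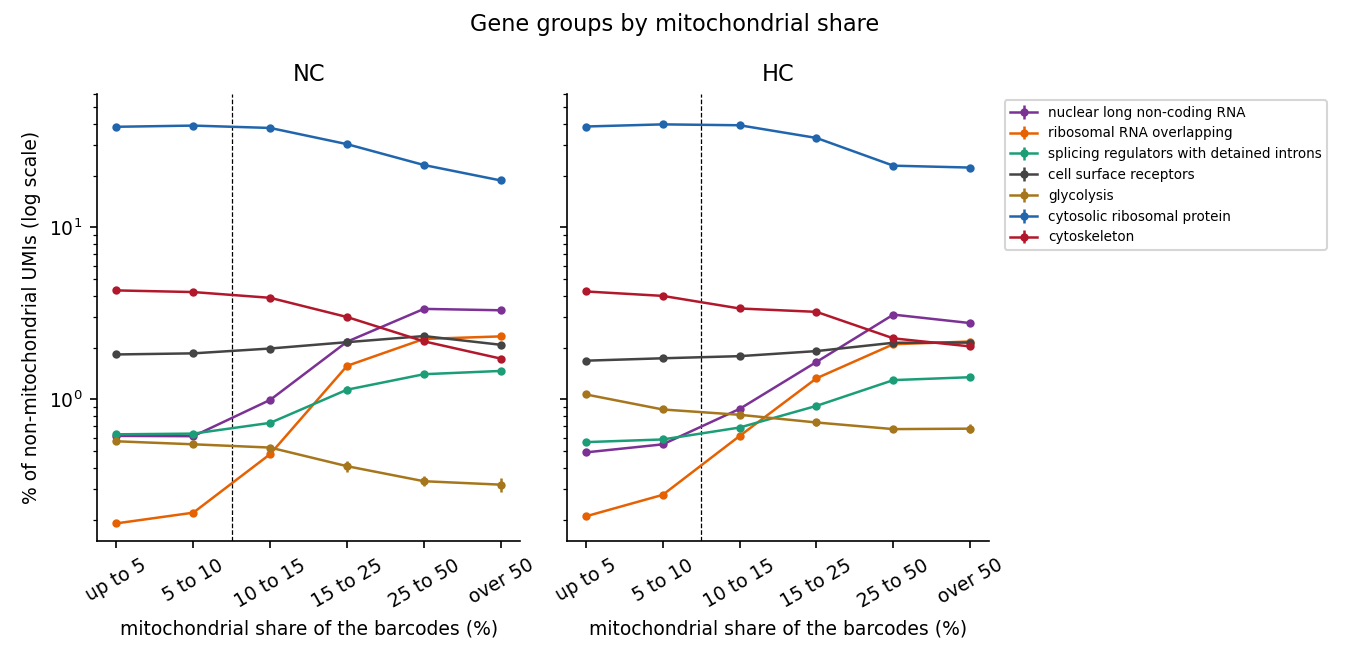
Share of non-mitochondrial UMIs (y, percent, log scale) of 7 gene groups against the mitochondrial share of the barcodes (x, 2 reference and 4 member classes split by the dashed line), in NC (left) and HC (right), with exact 95% intervals for counting error. Nuclear and ribosomal-RNA-overlapping groups take larger shares up to the 25 to 50% class and then level off, while ribosomal protein and cytoskeletal groups take smaller ones.

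Depth moved with all of this, and the overlap in depth between members and low-mitochondrial barcodes is thin. Comparing barcodes within ranges of non-mitochondrial UMIs, also added after the data were seen, set 338 NC members with 500 to 1000 such UMIs beside 62 low-mitochondrial barcodes, and 389 HC members beside 102. Nuclear long non-coding RNAs took 3.13% against 1.53% in NC and 2.98% against 1.87% in HC. At 1000 to 2000 UMIs (136 members against 143 in NC, 190 against 110 in HC) they took 2.24% against 1.23% and 1.804% against 0.870%, at 2000 to 4000 (59 against 1738, 119 against 1449) 0.820% against 0.739% and 0.983% against 0.646%, and at 4000 or more (51 against 11757, 85 against 12055) 0.854% against 0.604% and 0.819% against 0.498%. The difference was thus present within each of these ranges, at a smaller size than without matching. At 500 to 1000 UMIs cytosolic ribosomal proteins were also lower in the members, at 24.4% against 29.8% in NC and 24.3% against 27.3% in HC. Deeper ranges are not reported here for this group, so no statement is made about them.

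Other results depended on depth. The ribosomal-RNA-overlapping genes were lower in the members than in low-mitochondrial barcodes at 500 to 1000 UMIs, at 2.44% against 5.84% in NC and 1.958% against 4.03% in HC, and higher at 4000 or more, at 0.451% against 0.190% and 0.430% against 0.214%. Genes over 5000 bases had a median of 0.85 in NC members against 0.36 in low-mitochondrial barcodes at 500 to 1000 UMIs, but in HC the values were 0.89 against 0.86. At 1000 to 2000 UMIs they were 0.71 against 0.16 and 0.54 against 0.28. Bcl2 took 790 against 267 CPM in NC and 916 against 295 in HC at 500 to 1000 UMIs, and Xist 3378 against 512 and 3840 against 1936. In HC barcodes of 500 to 1000 UMIs the longest genes thus stood about as high without a high mitochondrial share as with it. When each reference barcode was weighted so that the reference had the members' depth, which left 239 NC and 385 HC members in the comparison, Rps2 turned to 0.02 in NC, and in HC Mcm3 turned to 0.19, Hist1h1b to 0.52 and Tuba1b to 0.25.

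Differences between HC and NC were next measured within the members. Of 3386 genes measured in the members of either library, HC exceeded NC by 1.5-fold or more in 105 (3.1%) and fell short of it by as much in 110 (3.25%), with a median of -0.05. Among reference barcodes, measured with far more UMIs, 42 of 2627 (1.6%) were higher and 15 (0.571%) lower. Over 2462 genes measured in both, 25 were higher in HC in members and reference alike, which is 33.3% of the 75 member calls and 71.4% of the 35 reference calls, and 10 were lower in both (14.5% of 69 and 76.9% of 13). The reference total was 111144593 UMIs in NC and 109447918 in HC, against 1093041 and 1697263 in the members, so the members' ratios carry much wider counting intervals.

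Glycolysis genes carried the clearest library difference among the members. Of 13 measured, 12 were higher in HC, with a median of 0.85, beside 0.77 and 10 of 12 in the reference. Pkm, pyruvate kinase, stood at 353 CPM in NC members and 827 in HC members (log2 1.23, 1.06 to 1.39), and at 417 and 928 in the reference (1.15). Tpi1, triosephosphate isomerase, stood at 199 and 433 (1.12, 0.90 to 1.34), with 1.38 in the reference, and Aldoa, aldolase, at 267 and 510 (0.93, 0.74 to 1.13), with 1.26 in the reference. Of 7 hypoxia genes, 4 were higher (median 0.65, and 0.69 over 4 in the reference), among them Pdk1, which holds pyruvate back from mitochondria, at 48.5 and 105 CPM (1.11, 0.66 to 1.58). DNA replication genes had a median of 0.34 with 3 of 18 higher, mitosis genes 0.30 with 1 of 20 higher, and splicing regulators -0.18 with none of 27 called.

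Some genes of activated and cytotoxic T cells, which form no fixed list, were lower in HC by similar sizes in members and reference, and Gzmb was higher in HC by less in the members. Xcl1, a chemokine of activated CD8+ T cells, stood at 326 CPM in NC members and 33.6 in HC members (log2 -3.28, -3.71 to -2.87), and at 317 and 33.3 in the reference (-3.25). In NC 140 members held a UMI of it, and 1 of them gave 25% of the total. Cd160, a receptor of memory and cytotoxic T cells, stood at 106 and 48.3 CPM (-1.14, and -1.24 in the reference), and Tnfsf8, a ligand of activated T cells, at 112 and 59.5 (-0.91, and -0.79). Gzmb, granzyme B, was at 200 and 268 CPM (0.42, 0.18 to 0.66), less than the 0.77 of the reference, and 1 barcode gave 10.1% of its NC member UMIs.

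**Figure D5:**
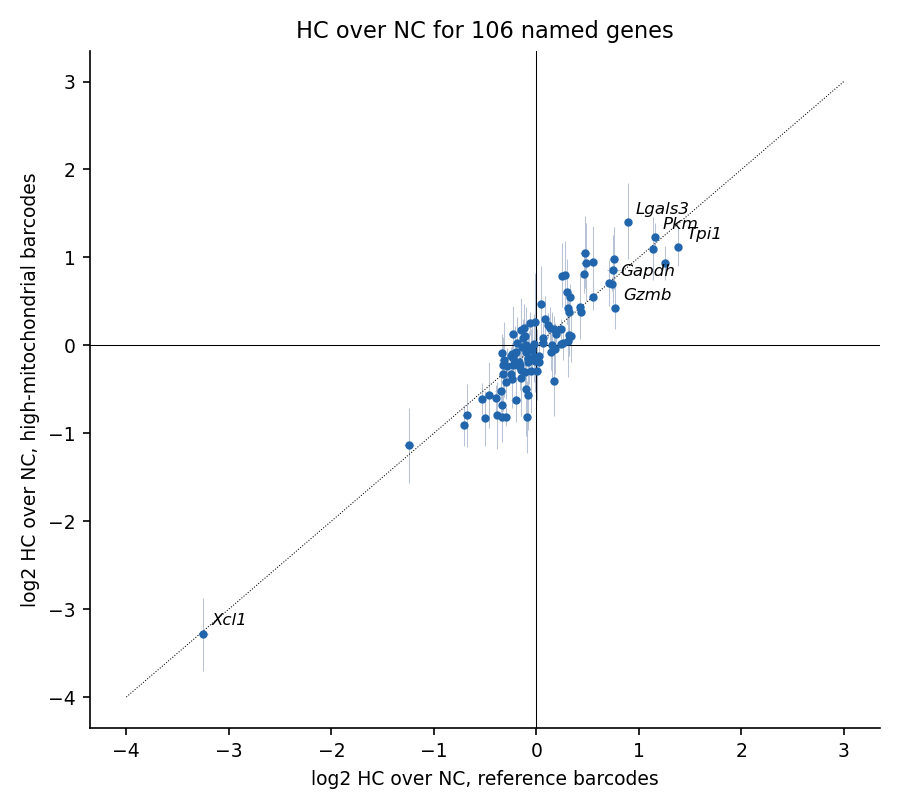
Log2 ratio of HC over NC among reference barcodes (x) and among high-mitochondrial barcodes (y) for the named genes measured in both, with 95% intervals for counting error and the dotted line marking equality. Pkm, Tpi1 and Gapdh lie to the upper right and Xcl1 at the lower left near the line, with Lgals3 above it and Gzmb below.

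What the members kept relative to their own reference differed little between HC and NC. The difference of the 2 log2 ratios (HC minus NC) reached 1.5-fold upwards in 24 of 3551 genes (0.676%) and downwards in 29 (0.817%), with a median of -0.03. Ciao2a differed by -0.73 (-1.12 to -0.33), Gm26917 by -0.51 (-0.62 to -0.40), Gzmb by -0.35 (-0.58 to -0.11) and Gigyf1, a translational repressor, by -0.70 (-1.09 to -0.30). In the other direction Mcm3 differed by 0.54 (0.19 to 0.90). Apart from Gzmb, which is always shown, these genes were named for extreme ratios in a library or in their list. That choice can enlarge such differences. Among all 3551 genes the whole interval lay past 1.5-fold upwards in 0 and downwards in 1. None of these differences was tested, since 1 library per group gives no spread between samples against which to set them.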

How the data were processed

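Single-cell RNA of mouse lymph node CD8+ T cells was measured in 2 libraries, NC and HC. As deposited, each matrix gives raw UMI counts of 32285 features in every barcode, with no normalization. The matrices were made with Cell Ranger 6.1.2, per the file headers, whereas build mm10, Seurat 3.2.3 and an older Cell Ranger (5.0.0) appear in the submitters' processing notes. The rule by which barcodes were kept for deposit is not given in the sources used here, and no barcode had fewer than 500 UMIs.

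Barcodes with more than 10% of UMIs from the 13 genes whose symbols start with mt- were the members. Counts were summed over members and over reference barcodes of each library and divided by the summed non-mitochondrial UMIs to give CPM (per 1000000). Log2 ratios and shares carry exact binomial (Clopper-Pearson) intervals and CPM exact Poisson intervals, at 95%. The difference of the log2 ratios, HC minus NC, carries a normal approximation interval from Poisson counts. No pseudocount was added, and a count of 0 was set to a floor of 3 counts per group. Genes with at least 50 CPM in either group were measured, and 1.5-fold marked a call. With 1 library per group, neither tests nor p-values were possible. Depth in the members was 1093041 non-mitochondrial UMIs in NC and 1697263 in HC. Shares of barcodes with a UMI were taken after thinning to 500 non-mitochondrial UMIs.

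The 27 gene lists, 16 marker lists and the members were chosen with earlier results of these data known. The 202 named genes were the 13 mitochondrially encoded genes, the markers, 16 genes always shown, from every list the up to 3 measured members farthest from a ratio of 1, and the 10 highest and 10 lowest ratios per comparison at 100 CPM or more, leaving out antigen receptor segments, predicted genes and ribosomal protein genes. 1 result of a named gene is not reported here. Other genes of the mitosis and cytoskeleton lists named beside them were chosen after their values were seen. Gene models came from GENCODE vM21 on GRCm38, which matched 32158 identifiers (99.6%). Protein features came from translating the coding sequences of these models. The ratio of members over reference was tested on simulated counts in each library. The ratios of HC over NC and the difference HC minus NC were not. Alternatives covered the mitochondrial threshold, depth, weights, scaling (TMM factors of edgeR 4.0.16 and size factors of DESeq2 1.42.0, used for scaling only), the CPM floor, the fold and the barcodes used. Software was pandas 2.3.3, scipy 1.17.1, matplotlib 3.10.9 and numpy 2.4.6 under Python 3.11.15, and R 4.3.3.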

Additional observations from a re-analysis of the deposited data

Results flagged for a closer look

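A signal appeared in barcodes outside both groups compared, the 61 NC and 101 HC barcodes that were too shallow for the reference and low in mitochondrial UMIs. Genes overlapping the ribosomal RNA repeat took 6.097% of their non-mitochondrial UMIs in NC and 4.19% in HC, above the 0.196% and 0.226% of reference barcodes and above the 1.31% and 1.27% of high-mitochondrial barcodes. Nuclear long non-coding RNAs took 1.44% in NC and 1.88% in HC, against 0.613% and 0.506% in the reference. In NC this lay below the 2.04% of the high-mitochondrial barcodes and in HC slightly above their 1.77%. The median mitochondrial count in these barcodes was 9 UMIs in NC and 8 in HC. No explanation was tested.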

How the results depend on the processing

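Counts are given below as higher and lower in the members for NC, then for HC, then higher and lower in HC among the members, then for HC minus NC, wherever they moved by more than 1.5 times. Thresholds of 5% and 20% made 26.6% and 5.95% of NC barcodes and 38.3% and 9.33% of HC barcodes members. Members over 20% alone gave 2005 and 748, 1850 and 633, 219 and 312, 173 and 207. Members passing the reference's depth limits gave 754 and 89, 710 and 157, then 184 lower, then 43 and 69. A reference weighted to the members' depth gave 382 and 56, 267 and 37, 161 and 230, 196 and 192. Equal weight per barcode gave 1878 and 656, 1704 and 488, 194 and 298, 132 and 205. TMM scaling gave 559 and 1345, 494 and 1317, then 70 lower in HC, and median-of-ratios scaling 578 and 1311, 489 and 1324. A floor of 20 CPM gave 2430 and 343, 2338 and 381, 363 and 431, 205 and 260, and a floor of 100 CPM 541 and 106, 504 and 155, 46 and 31, 0 and 3. A 2-fold limit gave 716 and 8, 632 and 9, 14 and 11, 1 and 1. Scaling without ribosomal protein genes gave 699 lower in NC, 615 lower in HC, then 228 and 169, 93 and 76. Without the deepest 1% of members NC had 299 lower. Calls whose whole interval lay past 1.5-fold were 27 lower in NC, 47 lower in HC, 15 and 9 in HC over NC, 0 and 1 in HC minus NC. Chosen after the data were seen, a floor in the reference alone gave 505 higher in NC and 501 in HC, 56 higher in HC over NC, and 13 and 11 in HC minus NC, and members over 10 to 25% alone gave 507 and 104, then 519 higher in HC, 162 and 200, 80 and 96.

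Of the called named genes, 71 of 73 in NC, 72 of 81 in HC and 36 of 36 in HC over NC kept their direction under every alternative, and 20, 10 and 19 kept their call. The 11 exceptions in direction all arose with the reference weighted to the members' depth: Klf6 (-0.20) and Rps2 (0.017) in NC, and Alyref (0.10), Dut (0.17), Gbp4 (-0.17), Hist1h1b (0.52), Hsp90ab1 (0.086), Mcm3 (0.19), Pclaf (0.19), Tuba1b (0.25) and Tuba1c (0.11) in HC. The cause was not tested. With that weighting the median of the ribosomal-RNA-overlapping genes was 0.49 in NC and 0.48 in HC, and that of the nuclear long non-coding RNAs 0.65 and 0.75. Medians of lists past 1.5-fold kept their direction for 4 of 4 in NC, 4 of 4 in HC and 2 of 2 in HC over NC, while 1 of each kept its size throughout. The glycolysis median of HC over NC ranged from 0.61 to 1.11. Depth limits genes near the 50 CPM floor, where a few UMIs decide a call. No paired analysis was possible because each group has 1 library.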
